A study of Mus musculus with 25 samples.

Results

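Haematopoietic stem cells from mice given 4 doses of 5-fluorouracil (5-FU) were compared with cells from mice given none. The comparison held 5 of the 25 libraries of the series: 2 labelled with 4 doses and 3 labelled with 0 doses, all that have these labels. All 5 came from bone marrow of C57Bl/6 mice whose age is labelled as 3.5 months plus 6 months, so the undosed group is the age match of the dosed one. Methylation was read by reduced representation bisulfite sequencing (RRBS), in which DNA is cut with a restriction enzyme, treated with bisulfite and sequenced. The labels do not say how far apart the doses were, how many cells entered a library or whether a library pooled animals. Beside these libraries, 3 with 2 doses, 2 young, 2 old and 2 fetal libraries are quoted for reference. Young libraries are labelled 3.5 months and old ones 25 months, and the fetal ones carry an embryonic age. The remaining 11 libraries are labelled as transplants of 10, 50 or 500 young or old stem cells. These transplant libraries enter only where the whole series is used.

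Haematopoietic stem cells sit in bone marrow, divide rarely and renew all blood lineages. 5-FU blocks thymidylate synthase, kills dividing blood cells and drives the surviving stem cells into cycle to rebuild the marrow, so repeated doses enforce a history of divisions. At a CpG, methylation is copied to the new DNA strand at each division by Dnmt1 together with Uhrf1. CpG-rich promoters are mostly free of it, and most other CpGs carry it. The series was designed to ask how methylation changes with enforced proliferation. Expression was not measured, and low promoter methylation is not expression, so the labelled cell type could not be checked against its marker genes.

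Methylation levels are the percent of reads methylated. CpGs with 5 or more reads in all 5 libraries were summed in tiles of 1000 bp on the 19 autosomes. These were 634633 CpGs, and 60272 tiles held 3 or more of them. The median tile had between 103 and 150 reads in a library. The 0-dose libraries held 23392293 to 28509907 reads and the 4-dose libraries 22835325 to 25159448. The second 4-dose library listed the fewest CpGs, 1246435 against 1504932 to 1546018 in the other 4. In the 0-dose libraries 56.9% to 57.2% of listed CpGs were on the plus strand, against 58.7% and 58.9% with 4 doses. Whether these differences between libraries have a part in the results was not tested.

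Promoter sequences are shown first because they show where in a gene the measured CpGs lie. No annotation of the files' genome build was used. RefSeq promoter sequences (GRCm38.p6, 250 bases before to 50 after a start) were instead placed by the spacing of their CpGs among the deposited CpGs. Of 18519 windows searched, 10389 were placed. The 250 bases before the start of 4 genes follow, with the CpGs measured in all 5 libraries in capitals. Zfyve27 encodes protrudin, which works in membrane traffic, and it is shown because a CpG that was higher with 4 doses lies beside CpGs that were not. Dydc2 encodes a protein with a DPY30 domain, and its window had the widest gap between the groups among windows with 20 or more reads in each library. Plagl1 is an imprinted gene for a zinc finger transcription factor, methylated on 1 parental copy, and it shows how the libraries differ from each other. Hoxa5, a homeobox transcription factor, shows a pair of 4-dose libraries that disagree.
Zfyve27: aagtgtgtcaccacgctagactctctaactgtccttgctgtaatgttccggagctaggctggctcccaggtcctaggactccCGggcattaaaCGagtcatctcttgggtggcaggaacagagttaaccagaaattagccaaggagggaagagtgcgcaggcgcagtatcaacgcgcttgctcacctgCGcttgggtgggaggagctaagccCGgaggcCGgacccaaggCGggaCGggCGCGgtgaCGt
Dydc2: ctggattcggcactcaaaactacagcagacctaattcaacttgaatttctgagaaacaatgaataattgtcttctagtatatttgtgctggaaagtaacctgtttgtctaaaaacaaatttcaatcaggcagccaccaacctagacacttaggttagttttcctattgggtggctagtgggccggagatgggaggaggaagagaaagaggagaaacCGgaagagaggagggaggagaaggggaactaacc
Plagl1: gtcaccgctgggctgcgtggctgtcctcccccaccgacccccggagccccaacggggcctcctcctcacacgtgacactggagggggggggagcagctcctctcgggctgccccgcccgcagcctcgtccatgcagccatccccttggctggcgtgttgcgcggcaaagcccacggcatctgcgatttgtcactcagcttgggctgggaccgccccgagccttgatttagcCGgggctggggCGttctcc
Hoxa5: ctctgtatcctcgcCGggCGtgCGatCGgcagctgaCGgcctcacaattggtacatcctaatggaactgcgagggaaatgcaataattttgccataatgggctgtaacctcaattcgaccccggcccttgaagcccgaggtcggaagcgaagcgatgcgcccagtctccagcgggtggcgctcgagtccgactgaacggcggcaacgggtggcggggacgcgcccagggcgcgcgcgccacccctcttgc
Each is 1 run of 250 bases on the gene's strand. The Zfyve27 run holds 10 measured CpGs of 16, that of Dydc2 1 of 3, that of Plagl1 2 of 19 and that of Hoxa5 5 of 28.

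No tile passed the test between 4 and 0 doses. The threshold was an adjusted p under 0.05 (quasi-binomial model, Benjamini-Hochberg over all tiles) together with 10 or more percentage points between the group means. That was 0 of 60272 tiles (0%), and the smallest adjusted p was 1. At an unadjusted p under 0.05 there were 2451 tiles (4.07%), of which 1745 (2.9%) were higher and 706 (1.17%) lower with 4 doses. On both limma scales tried, limma called 0 tiles too. It had more tiles at an unadjusted p under 0.05 than the quasi-binomial model, 10095 and 5926. The direct comparison of 4 with 2 doses called 0 of 58872 tiles (0%) in the same quasi-binomial model, with 2935 (4.99%) at an unadjusted p under 0.05. With 2 libraries in the 4-dose group, and the wide gap between them described here, an absence of calls does not show that levels were the same.

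Mean levels were close in both groups. Averaged over all tiles, the 0-dose libraries read 55.8%, 54.0% and 54.4%, and the 4-dose libraries 55.3% and 56.05%. The groups overlapped, and the difference of 0.922 points was about as large as the spread between 0-dose libraries (54.7% ± 0.941, SD, n = 3, against 55.7% ± 0.557, n = 2). The two-sided exact permutation test gave p = 0.3, where 2 against 3 libraries cannot go below 0.1. Over the 31408 tiles at 80% or more in fetal and old libraries, the 0-dose libraries read 91.0%, 88.0% and 89.0%, and the 4-dose libraries 90.6% and 91.5%. Over the 21626 tiles under 20% there, the order was the other way, with 2.95%, 2.98% and 2.54% at 0 doses and 2.27% and 2.54% at 4 doses. In this low class every 4-dose library lay below every 0-dose library, by a narrow margin. With Benjamini-Hochberg adjustment over the 8 classes of tiles compared, each exact permutation test gave an adjusted p of 0.4.

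**Figure D1:**
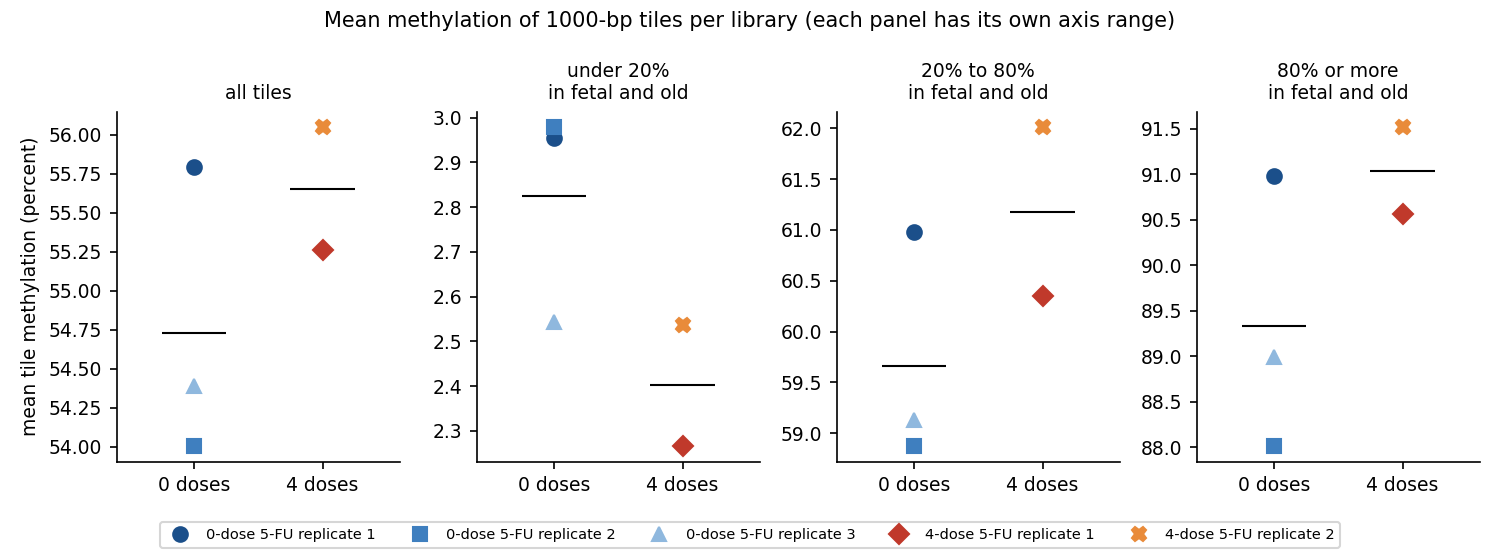
Mean methylation of tiles in percent (vertical axes, each with its own range) for the 3 libraries with 0 doses and the 2 with 4 doses, with the group mean as a line. Over all tiles the 4-dose libraries, 55.3% and 56.05%, lie on both sides of the highest 0-dose library, 55.8%.

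The 2 libraries with 4 doses differed from each other more than did the other 16 pairs of replicates in the series. Over the 21880 tiles between 10% and 90%, their tile levels differed by a median of 7.82 points, against 5.22 to 5.83 for the 3 pairs of 0-dose libraries. A gap of more than 30 points was seen in 7.45% of these tiles, against 1.14% to 1.48% for 0-dose pairs. The within-library correlation measures how far reads of a tile vary together in a library beyond counting error, with 0 meaning no extra spread. It was 0.0662 for the 4-dose pair and 0.0184 to 0.0211 for the 0-dose pairs. The difference was seen on each of the 19 autosomes, where the correlation ran from 0.0541 to 0.0776 with 4 doses and nowhere above 0.0264 with 0 doses.

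Over 16346 tiles covered in all 25 libraries and between 10% and 90% in fetal and old cells, the correlation of the 4-dose pair was 0.0576. Pairs of 2-dose libraries had 0.0197 to 0.0305 and pairs of 0-dose libraries 0.0156 to 0.0183. In young, old and fetal pairs it was between 0.00528 and 0.00658. The 4-dose value is 1 difference between 1 pair of libraries, so it has no error of its own and was not tested.

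**Figure D2:**
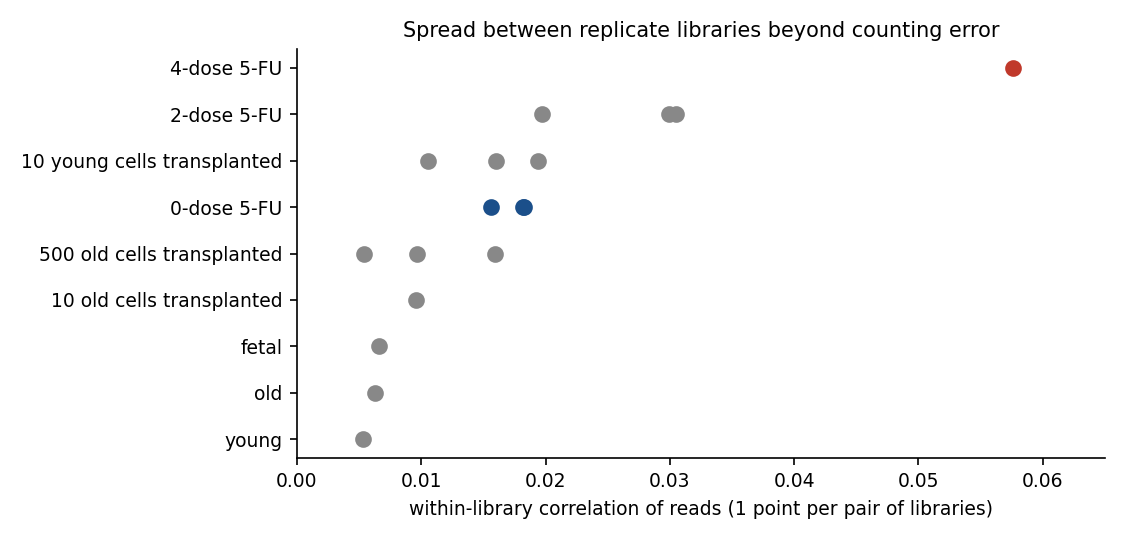
Within-library correlation of reads (horizontal axis, no unit) for each pair of replicate libraries, by group. The 4-dose pair, at 0.0576, lies to the right of every other pair, the next being a 2-dose pair at 0.0305.

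Methylated and unmethylated reads also lay differently over single CpGs. In 3038 tiles at 20% to 80% in every fetal, young and old library, CpGs with 20 or more reads were counted as all-or-none when they read exactly 0% or 100%. The 0-dose libraries had 5.11%, 5.08% and 6.14% of such CpGs, and the 4-dose libraries 10.8% and 27.6%. The 2-dose libraries had 6.78%, 5.22% and 12.1%. Both 4-dose libraries were above all 0-dose libraries, and the third 2-dose library lay between the 4-dose libraries. The means were 19.2% ± 11.9 (SD, n = 2) and 5.44% ± 0.602 (SD, n = 3), with p = 0.1 in the two-sided exact permutation test, the smallest p it can give here. Much of the difference of 13.8 points lay in the second 4-dose library: without it the difference was 5.35 points, and without the first it was 22.2 points.

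The order of the groups was the same at matched depth. Among CpGs read 20 to 30 times, the share at 0% or 100% came to 13.9% and 34.9% in the 4-dose libraries, against 7.68%, 7.10% and 8.66% in the 0-dose ones. More of these CpGs stood at 100% than at 0%. In the second 4-dose library 21.8% stood at 100% and 13.1% at 0%, and in the first 8.37% and 5.51%. The second 4-dose library was thus short of intermediate values, with 35.9% of its CpGs of 20 or more reads between 30% and 70%, against 42.05% in the first and 42.5% to 44.1% with 0 doses. How many molecules each library sampled, and whether this moved with the all-or-none CpGs, was not tested.

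**Figure D3:**
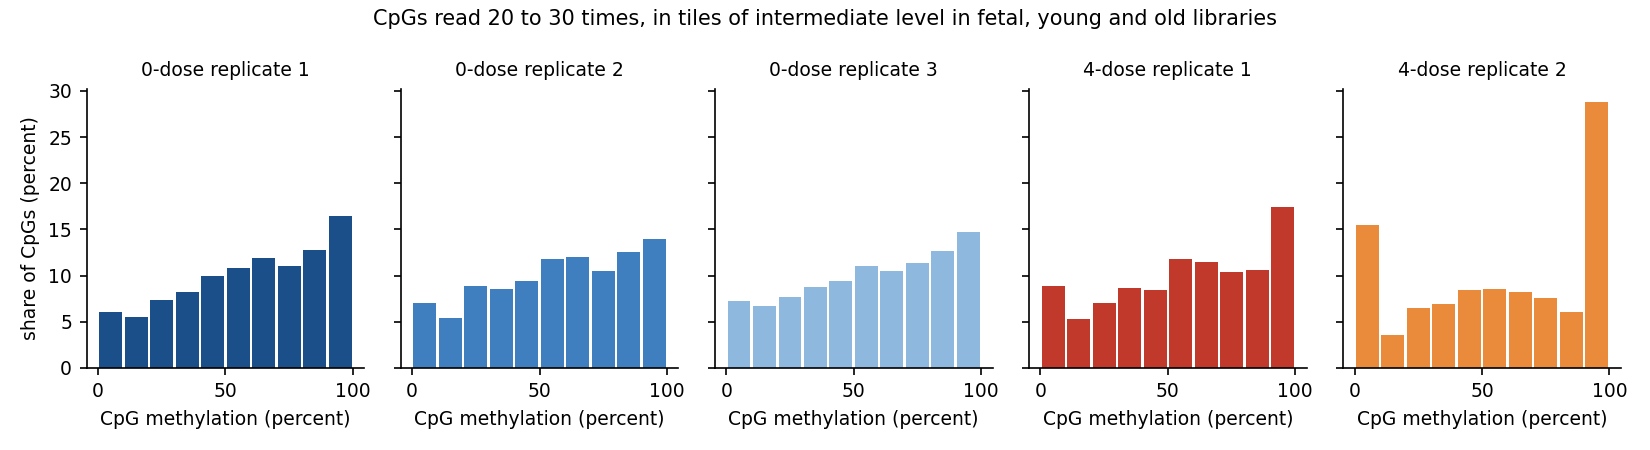
Share of CpGs (vertical axes, percent) by methylation level in steps of 10 points (horizontal axes, percent), for CpGs read 20 to 30 times in tiles of intermediate level, 1 panel per library. The second 4-dose library has 15.5% of its CpGs in the lowest step and 28.8% in the highest, against 6.01% to 7.29% and 13.9% to 16.4% with 0 doses.

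The gap between the 4-dose libraries was most alike at CpGs under 40 bp apart. It was taken CpG by CpG, over 90952 CpGs with 10 or more reads in both libraries and a pooled level between 10% and 90%. As a description over pairs of neighbouring CpGs, which share reads, Pearson's r of the gap was 0.46 for CpGs 1 to 19 bp apart and 0.28 for those 20 to 39 bp apart. It was 0.018 at 40 to 99 bp and 0.047 at 500 to 999 bp. Pairs of 0-dose libraries had r between 0.41 and 0.43 at 1 to 19 bp, between 0.25 and 0.29 at 20 to 39 bp and between 0.030 and 0.12 at 40 to 99 bp.

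The 5 tiles with the largest gap between the 4-dose libraries, among 24462 tiles with 100 or more reads in each of the 5 libraries, show its size. At chromosome 7, 87941001 to 87942000, which is 6217 bp from the placed start of Iqgap1, a scaffold protein of the cell cortex, the first 4-dose library read 92.6% and the second 27.1%. The 0-dose libraries there read 84.2%, 68.2% and 80.9%, between the pair. At chromosome 4, 118004001 to 118005000, the 4-dose libraries read 68.9% and 8.89% around 0-dose values of 39.2%, 29.7% and 41.7%. In 4 of these 5 tiles the first library was the higher, and at chromosome 13, 42913001 to 42914000, it was the lower, with 12.3% against 64.1%. The 2 others, at chromosome 7, had gaps of 53.3 and 52.9 points.

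Some imprinted genes have promoters methylated on 1 of their copies, and about equal numbers of methylated and unmethylated reads are usual at those. Of 19 imprinted genes on the list used, 6 had a measured promoter window. Of these, 3 read between 20% and 80% in the 0-dose libraries, and 3 were under 5% in all 5 libraries. At Plagl1 (chromosome 10, 12810388 to 12810687), the 0-dose libraries read 32.5%, 45.7% and 37.2% over 3 CpGs, and the 4-dose libraries 72.9% and 100%. The groups did not overlap, with a difference of 48.0 points and an unadjusted p of 0.00249, but the adjusted p was 0.975 (quasi-binomial model). At these 3 CpGs, taken singly, the 2-dose libraries read 25% to 42.9% and the 0-dose libraries 20.8% to 50%. The 2-dose libraries thus lay within the 0-dose range and below both 4-dose libraries. Only 31 reads stood behind the 100%, and they fell on 3 neighbouring CpGs: 13 of 13, 10 of 10 and 8 of 8 reads were methylated.

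A short way downstream the same library read the opposite. At the next measured CpGs, chromosome 10, 12810693 and 12810699, 0 of 15 reads were methylated at each, which allows a share of up to 20%. The first 4-dose library read 38.5% and 24.1% at these CpGs, and the 0-dose libraries 26.8%, 18.4% and 20.3% at the first of them. Over the window of Hymai, a non-coding imprinted RNA that starts beside Plagl1, which takes in both stretches, the 4-dose libraries read 50.5% and 50.8% and the 0-dose libraries 29.7%, 33.1% and 23.5%. The groups stood apart there, with an unadjusted p of 0.0512. Zrsr1, an imprinted gene for a splicing factor, read 45.6%, 48.5% and 35.0% with 0 doses and 50.4% and 65.9% with 4 doses, with an unadjusted p of 0.177. Igf2r, the imprinted receptor that clears insulin-like growth factor 2, read 28.9%, 49.6% and 26.5% against 41.5% and 28.2%, so its groups overlapped.

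Of 7114 promoter windows measured, from 6362 genes, 1 passed the test (0.0141%), in a fit added after the tile values were seen. This was Bcl11a, a transcription factor of stem and B cells that also silences fetal globin. Its window lies at chromosome 11, 23980445 to 23980744. The 0-dose libraries read 78.4%, 96.6% and 68.4% over 148, 88 and 19 reads, and the 4-dose libraries 0% and 2.38% over 142 and 126 reads. The 0% allows up to 2.11% by counting error alone. The difference was -79.9 points with an adjusted p of 0.0308 (quasi-binomial model). The high level was in the 0-dose group alone among those looked at: the 2-dose libraries read 0.329%, 0.109% and 0%, with further CpGs of the window taken in. At the 3 CpGs measured in all 5 libraries, taken singly, the 2-dose libraries read 0% to 1.18%. Only 3 CpGs had 5 or more reads in all 5 libraries, and the call was lost without either of the first 2 0-dose libraries or either 4-dose library (adjusted p between 0.105 and 1). It was also lost with 1 CpG per window, with dispersion moderated over all windows and with the replicate block (adjusted p of 0.110, 0.493 and 1), and the window has no value at 10 reads per CpG.

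A gap of at least 10 points between the groups was seen in 38 of 7114 windows (0.534%), and 37 of these had 20 or more reads in each library. Of the 37, 30 were higher and 7 lower with 4 doses. Not all are separate loci: Gm35782 is among the lower ones more than once with the same reads. The windows of Plagl1 and Hymai, both higher, overlap. Dydc2 read 2.47%, 4.08% and 4.76% with 0 doses and 39.2% and 36.6% with 4 doses, on 49 to 81 reads. Of its 3 measured CpGs, only that at base 217 read higher, with 65.96% and 45.6% on 47 and 57 reads at 4 doses. At 0 doses it read 0%, 16.7% and 3.23% on 9, 12 and 31 reads, and the 0% allows up to 33.3%. Window levels are pooled over reads. Base 217 held 47 of 79 and 57 of 71 window reads at 4 doses, against 9 of 81, 12 of 49 and 31 of 63 at 0 doses. How much of the window difference came from this shift in reads was not tested. Undosed young libraries read 26.3% and 22.1% at this CpG and old libraries 28.9% and 15.7%. The 2-dose libraries read 37.4%, 42.9% and 40.9%. The other 2 measured CpGs of the window read 0% with 4 doses, on 7 to 18 reads, which allows up to 42.9% in the shallowest. Adam10, a membrane protease that sheds Notch and other surface proteins, read 2.36%, 0% and 1.85% against 20.6% and 28.5%. Atf4, the transcription factor of the stress response to amino acid shortage, read 2.56%, 0% and 0.637% against 13.6% and 14.4%. Undosed young and old libraries lay between these groups, at 6.61% to 12.3% for Adam10 and 6.67% to 11.9% for Atf4. Their values take in further CpGs of the windows, so they are not over the same CpGs. The 4-dose and 0-dose groups of these genes did not overlap, but apart from Bcl11a no window passed the adjusted test. Cav2, which encodes a caveolin, was lower, with 15.6%, 16.0% and 20% against 2.78% and 3.19%.

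At Zfyve27 the difference sat on single CpGs. At base 83 of the sequence shown, counted from 1 at its 5' end (chromosome 19, 42244889), the 0-dose libraries read 2.56%, 0% and 0% on 39, 33 and 56 reads. The 4-dose libraries read 39.7% (95% interval 27.6 to 52.8, exact Clopper-Pearson) on 63 reads and 20.8% (12.4 to 31.5) on 77 reads. The next measured CpG, at base 94, read 0% in all 5 libraries on 19 to 57 reads, which allows at most 15.8% in the shallowest. Between bases 94 and 279 every measured CpG read 0% in all 5 libraries. Many of these zeros rest on few reads: in the second 4-dose library some rest on 6, which allows up to 50%. A level like that at base 83 is not excluded at those CpGs. At base 284 the 4-dose libraries read 23.9% and 40.9% and the 0-dose libraries 0% each, on 7 to 28 reads. Both of the CpGs that were higher lie in the sequence CCGG, as do those at bases 213 and 220, which read 0% in all 5 libraries. In the second 4-dose library the zeros at bases 213 and 220 rest on 10 and 6 reads and allow up to 30% and 50%. Undosed cells of other ages also read high at base 284, young at 31.8% and 24.4% and old at 41.4% and 40.6%. At base 83 young libraries read 18.8% and 13.6% and old libraries 18.4% and 7.37%.

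CpGs of this kind were counted beyond this gene. In CpGs with 20 or more reads in each of the 5 libraries, the groups lay 20 or more points apart at 382 of 111218 CpGs that were higher (0.343%) and 182 that were lower (0.164%) with 4 doses. Of the 59030 CpGs at 5% or less in each 0-dose library, 142 (0.241%) read 20% or more in each 4-dose library. The reverse, 5% or less with 4 doses and 20% or more in each 0-dose library, held for 36 of 67390 (0.0534%). Of the 142, 29 lay in placed promoter windows, and 25 of these (86.2%) were in CCGG. This is the site of MspI, the enzyme with which RRBS libraries are usually cut. Of all 13903 CpGs of that depth in placed windows, 33.5% were in CCGG. The site was in 10057 of 10058 placed autosomal windows, and it reads the same on both strands.

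These 29 CpGs were chosen for their difference, so their levels in the 5 libraries are a description. Their median level was 27.6% and 36.1% in the 4-dose libraries, and 2.00%, 0% and 0% in the 0-dose libraries. In libraries that the choice did not use, the medians were 29.9%, 30.1% and 22.9% with 2 doses, 18.8% and 13.8% in young, 23.5% and 13.6% in old and 1.18% and 6.35% in fetal cells. None of the 29 was at 5% or less in all 2-dose libraries. The medians of undosed young and old cells were also above those of the 0-dose group. Since the CpGs were chosen at 5% or less in each 0-dose library, the choice favours this order, which is no support.

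Neighbours of these CpGs and their depth were also listed. Of the 27 with a measured CpG within 50 bp, 18 had every such neighbour under 10% in both 4-dose libraries. A neighbour needed only 5 reads in each library to count as measured. The CpG itself held a median of 2.12 times the reads of its neighbours in the 4-dose libraries and 1.19 times in the 0-dose libraries. Whether depth or the restriction site has a part in the difference was not tested. The genes included Rmnd5b, with 53.5% and 45.3% at 4 doses and 0%, 3.23% and 0% at 0 doses, and Lmo4, a LIM-domain transcription regulator, with 25.0% and 53.8% against 0%, 4.17% and 0%. At Ndc80, a part of the kinetochore that holds chromosomes to the spindle, the CpG read 27.9% and 38.6% against 0% in every 0-dose library.

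Averaged over all low promoter CpGs, in contrast, levels in CCGG were lower with 4 doses. Among 13881 such CpGs at under 20% in fetal cells, the 0-dose libraries read 3.15%, 2.86% and 1.98%, and the 4-dose libraries 1.36% and 1.51%. At the 47759 low CpGs outside the site, the values were 0.822%, 0.773% and 0.783% against 0.522% and 0.586%. The groups did not overlap in either set, with differences of -1.23 and -0.239 points. The two-sided exact permutation tests gave p = 0.2 and p = 0.1, and both were 0.4 with Benjamini-Hochberg adjustment over the 6 sets tested. The 2-dose libraries read 1.39% to 1.52% in the site, and the other 20 libraries together 0.702% to 2.59%, so that 2 of the 0-dose libraries stood above every library outside the comparison.

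**Figure D4:**
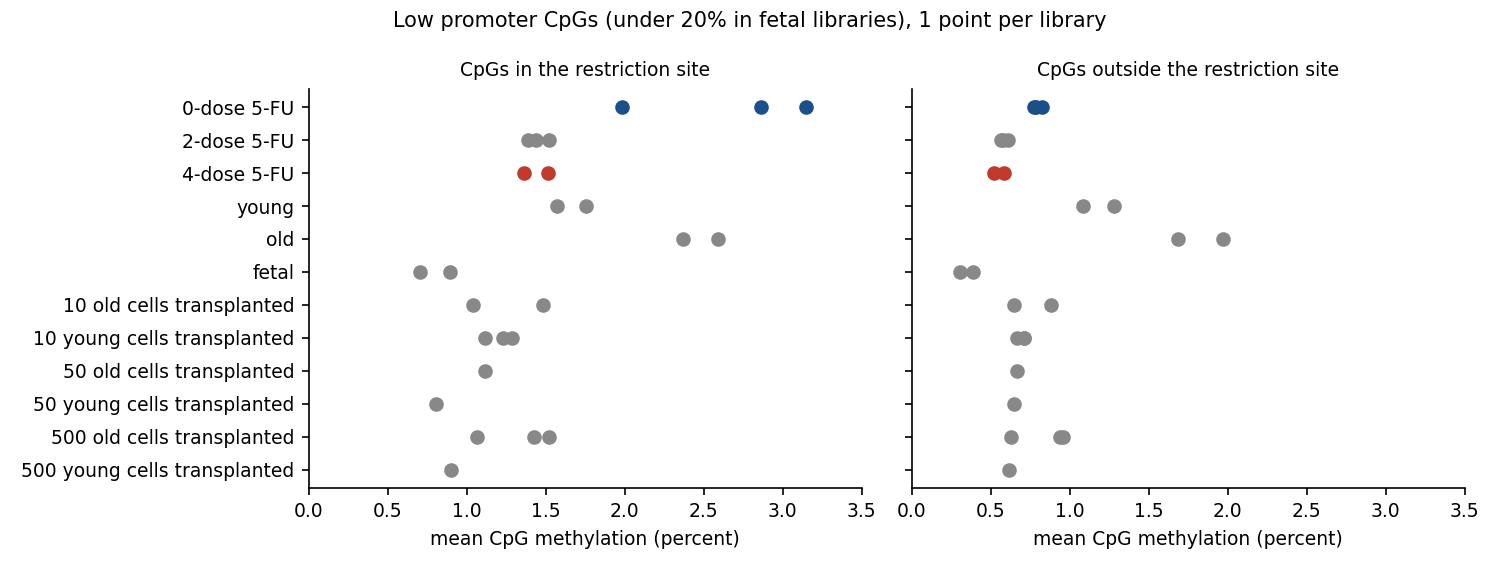
Mean methylation (horizontal axes, percent) of promoter CpGs at under 20% in fetal libraries, for CpGs in CCGG (left) and other CpGs (right), 1 point per library and 1 row per group. In the site the 0-dose libraries reach from 1.98% to 3.15% and the 4-dose libraries from 1.36% to 1.51%.

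Genes of stem cell function, the cell cycle and the response to 5-FU showed low promoters in both groups. Of 178 genes on 11 lists, 47 had a measured promoter window, 0 passed the adjusted test, and 2 had an unadjusted p under 0.05, 1 higher (Plagl1) and 1 lower (Hoxa5). Over all windows, 1.1% were higher and 0.253% lower at that threshold. In 42 of the 47 the mean was lower with 4 doses, as it was in 5032 of all 6362 genes, whose median difference was -0.523 points. Of these 6362 genes, 85.9% were under 5% in all 5 libraries.

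The enzymes and targets linked to the drug had low promoters in both groups. On the list of 5-FU targets and pyrimidine metabolism, 6 of 14 genes were measured and all 6 were under 5% in each of the 5 libraries compared, with a median difference of -0.401 points. They include Umps, which activates 5-FU, and the uracil and thymine glycosylases Ung, Tdg and Mbd4, which excise wrong bases. With 2 doses, the Tdg window read higher, at 17.6%, 8.05% and 7.61%. The 2-dose values take in further CpGs of the window, and whether these account for the difference was not tested. The list of DNA methylation enzymes had 7 of 14 measured, among them Dnmt1, Dnmt3a, Tet2 and Uhrf1, all under 5% in the 5 libraries, with a median difference of -0.722 points. The 10 measured genes of 18 on the list of cell cycle inhibitors and p53 response, such as Cdkn1a and Mdm2, were likewise under 5% in all 5 libraries, with a median difference of -0.997 points.

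Stem cell, cyclin and lineage genes were also mostly low. The median differences were -1.66 points for stem cell transcription factors, -1.03 for cyclins and replication genes, -1.82 for Hox genes and -0.0166 for imprinted genes. Of 4 measured stem cell transcription factors, 3 were under 5% in all libraries, and Myb, which sustains progenitor growth, read 9.76%, 7.41% and 8.57% with 0 doses and 0% and 0% with 4 doses. The second of these zeros rests on 29 reads and allows up to 10.3%, above each 0-dose value, which rest on 4, 2 and 3 methylated reads. On the list of cyclins and replication, Cdk4, the kinase partner of D cyclins, read 6.67%, 4.05% and 8.55% against 0% and 0%. The groups of Myb and Cdk4 did not overlap, but their unadjusted p-values were 0.0578 and 0.0650 (quasi-binomial model). The lists of myeloid, erythroid and lymphoid genes had 1, 1 and 3 measured members, and the list of stem cell surface genes 2. The median differences of these 4 lists lay between -0.905 and -0.344 points.

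Among the listed genes, Hoxa5 had the difference farthest below 0, at -27.9 points. It read 80%, 78.9% and 95.9% with 0 doses and 35.6% and 78.5% with 4 doses, over the 5 CpGs in capitals at the far end of its sequence. The groups stood apart by a narrow margin, the 4-dose libraries differed by 42.9 points, and the unadjusted p was 0.0264. The 2-dose libraries read 47.0%, 60.2% and 76.2%, over a window that takes in further CpGs. The Hoxa6 and Hoxa13 promoters were under 5% in all 5 libraries.

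Across the genome, 27 tiles stood out by size. Whether they hold promoters is not known, since only placed starts could be looked for, and 2 of the 27 lay within 10000 bp of one. Among 58642 tiles with 20 or more reads in each library, 10 (0.0171%) had every 4-dose library 30 or more points above every 0-dose library and 17 (0.029%) had them as far below. They were picked after the values were seen and none passed the adjusted test over the 5 libraries, so they are given as descriptions. In a fit of all 25 libraries, 11 of them were among 46 tiles that passed. With 1 dispersion trend for all tiles, 15 of them were among 46. Both fits hold the 5 libraries by which the tiles were picked, so these counts are no support. The fit of 25 libraries used a within-library correlation of 0.0158, against 0.0576 for the 4-dose pair. The fit with 1 trend gave tiles no spread of their own. A further 16 and 10 tiles lay 25 to 30 points apart, just outside the bound.

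The largest gap upwards was at chromosome 11, 59289001 to 59290000, with 6.25%, 20% and 16.0% at 0 doses and 80.5% and 87.2% at 4 doses. The 2-dose libraries read 82.2%, 56.8% and 95.9%, and undosed old libraries 77.3% and 72.2%. Young libraries read 32.5% and 62.2% and fetal 20.5% and 66.7%. All of these lay above each 0-dose library, so a high level was not particular to 4 doses. At chromosome 17, 35042001 to 35043000, the 0-dose libraries read 35.6%, 46.2% and 45.1%, and the 4-dose libraries 82.8% and 97.1%. That tile is 6086 bp from the placed start of Ehmt2, a histone H3 lysine 9 methyltransferase. Libraries of undosed cells lay on both sides there, young at 0% and 10.0%, old at 91.6% and 76.4% and fetal at 82.0% and 81.4%. The 2-dose libraries read 83.1%, 82.7% and 84.9%. At chromosome 15, 58046001 to 58047000, a tile of 19 CpGs read 1.84%, 2.18% and 0.713% with 0 doses and 33.2% and 53.1% with 4 doses. The 2-dose libraries, at 38.7%, 27.8% and 16.3%, overlapped the 4-dose ones and lay above the 0-dose ones. The difference rested on CpGs not covered in the young libraries as well: over those that are, it was -0.572 points, so other ages are not set beside it. As a mean over CpGs, not weighted by reads, it was 8.46 points.

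Among the tiles that were lower, 1 lay by a stem cell gene. At chromosome 16, 92695001 to 92696000, which is 1574 bp from a placed start of Runx1, a transcription factor that stem cells need to arise, the 0-dose libraries read 60%, 78.2% and 60.7%. The 4-dose libraries read 19.8% and 24.0%, a difference of -44.4 points (unadjusted p = 0.000960, adjusted p = 1, quasi-binomial model). The 2-dose libraries read 65.8%, 43.3% and 91.6%, young 76.6% and 67.7%, old 66.2% and 79.8%, and fetal 2.04% and 1.63%. Both 4-dose libraries were thus below each of the 0-dose, 2-dose, young and old libraries and above the fetal ones. At chromosome 6, 52127001 to 52128000, which is 26586 bp from the placed start of Hoxa5, the levels were 76.6%, 71.0% and 86.8% against 35.7% and 20%.

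The lowest p-value of all tiles, 3.58e-05, belonged to chromosome 4, 4270001 to 4271000. There the 0-dose libraries read 85.2%, 75.8% and 68.8% on 88 to 153 reads, and the 4-dose libraries 9.66% and 11.7% on 1646 and 2266 reads. The 2-dose libraries (7.80%, 5.96% and 9.01%), young (12.6% and 11.3%) and old (17.6% and 20.4%) lay near the 4-dose level. Fetal libraries read 67.1% and 26.2%. The low level was thus not particular to 4 doses. The tile has no value once CpGs over 500 reads are left out. In 4 of the 27 tiles, all lower with 4 doses, the 4-dose group had 5 or more times the share of reads of the 0-dose group. At chromosome 11, 103934001 to 103935000, and chromosome 1, 7732001 to 7733000, leaving out CpGs over 500 reads turned the difference from -44.8 to 13.1 points and from -48.2 to 6.18 points. In young libraries these tiles read 8.96% to 15.1%, near the 4-dose level. Over all 17 lower tiles, the young mean was nearer to the 4-dose mean in 10 and the 2-dose mean in 10. Over the 10 higher tiles, these counts were 1 and 5.

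**Figure D5:**
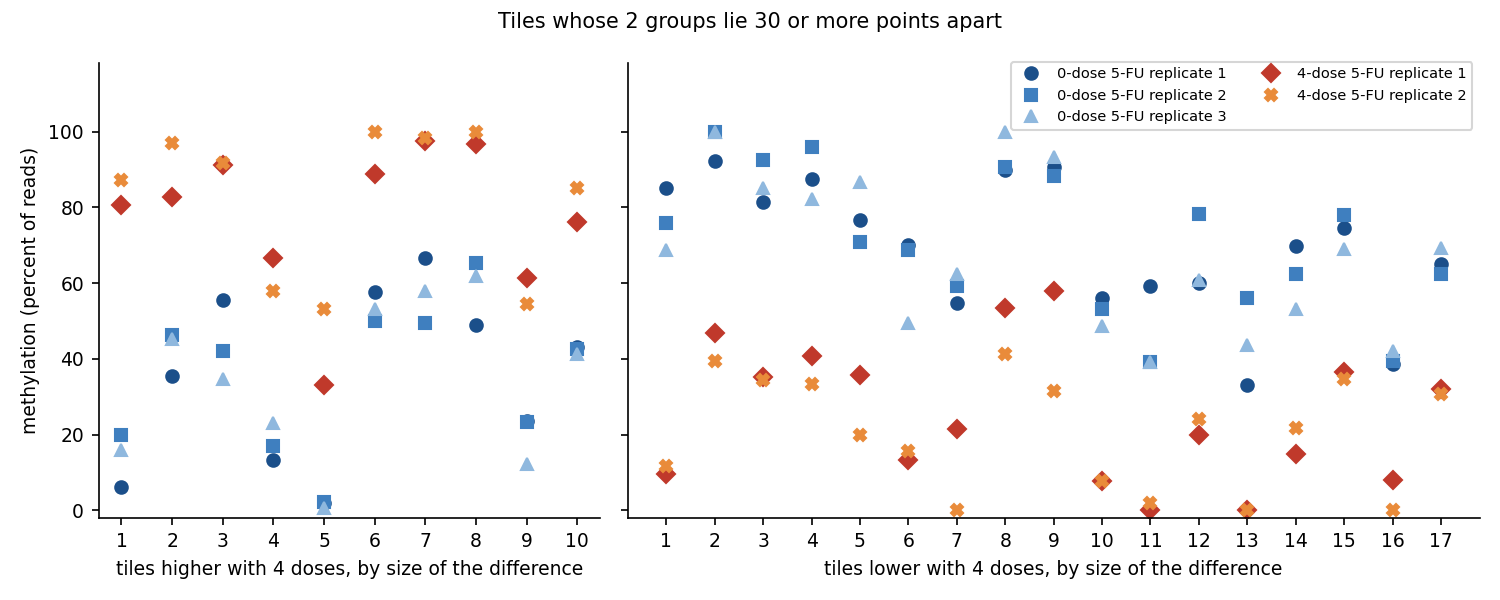
Methylation in percent (vertical axis) of each of the 5 libraries in the 10 tiles higher (left) and 17 lower (right) with 4 doses by 30 or more points, ordered by the size of the difference. No 4-dose point overlaps the 0-dose points of its tile, since the tiles were chosen for this gap.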

How the data were processed

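Each library had a deposited table of CpG positions with methylated over total reads, a methylation score and a strand. The submitters' processing notes name mm9 as the genome build. The score is the authors' methylated share scaled to 1000 and rounded down, as tested on the deposited values, and was not used in tests. Which aligner and methylation caller were used, and whether duplicates were removed, is not given in the sources used here. The reads were summed over CpGs with 5 or more reads in all 5 libraries, in 1000-bp tiles of 3 or more CpGs on the autosomes. Groups were compared per tile with a quasi-binomial model with weights for overdispersion, an F test and Benjamini-Hochberg adjustment (numpy 2.4.6, scipy 1.17.1). The dispersion was moderated with limma 3.58.1 in R 4.3.3 from tiles between 10% and 90%, a setting settled after the data had been seen. The scripts were tested on simulated data.

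The planned rule named the 10 largest gains and losses among changed tiles, of which there were 0, and the 5 tiles with the largest gap between the 4-dose libraries. The tiles 30 points apart, the promoter windows, the single CpGs and the CCGG sites were chosen after their values were seen, as were the promoters named. The comparison, its members and the gene lists were chosen with earlier results of these data known. Promoters were placed by their CpG spacing, 99.16% of them with the same shift as a neighbouring gene, and only these were used. Promoter window levels of libraries outside the comparison take in further CpGs, beyond those measured in all libraries compared. Levels of single libraries rest on a median of 10 to 13 reads per CpG. Intervals (exact Clopper-Pearson, 95%) and the upper limit for a count of 0 (3 reads of the total) cover counting error only, since reads without molecular identifiers are not independent molecules. The labels do not tie replicates to separate animals, so p-values measure the spread between libraries, which may be technical.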

Additional observations from a re-analysis of the deposited data

How the results depend on the processing

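The count of changed tiles was 0 at 10 reads per CpG, without CpGs over 500 reads, with 300-bp tiles, with 1 CpG per tile, in fits of 8 and 10 libraries, on both limma scales and without any 1 library (0 to 0). It was 46 in a fit of all 25 libraries and 46 with 1 dispersion trend for all tiles; the cause was not tested. The mean difference kept its direction in every setting run, from 0.574 to 1.46 points when 1 library was left out. The median gap between the 4-dose libraries over all tiles was 2.88 points, and 1.89 at 10 reads per CpG, 2.11 with 300-bp tiles, 1.0053 in tiles of 100 or more reads, and 10.0 as a root mean square less sampling variance. The tile at chromosome 11, 103934001, reversed to 13.1 points without CpGs over 500 reads and to 3.72 in limma on mean CpG levels, and that at chromosome 1, 7732001, to 6.18 and 2.36. The tile at chromosome 15, 58046001, reversed to -0.572 points in the fits of 10 and of 25 libraries, which need coverage in more libraries.

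Alternatives chosen after seeing the data follow. The difference in all-or-none CpGs, 13.8 points, was 16.6 at 20 to 30 reads, 21.7 at 10 to 20 reads, and 5.35 to 22.2 when 1 library was left out. The 1 changed promoter window, Bcl11a, became 0 at 10 reads per CpG, 0 with 1 CpG per window and 0 with dispersion moderated over all windows. It became 89 with 1 dispersion trend, 7 in the fit of 25 libraries, and 0 to 1 when 1 library was left out. The 382 higher single CpGs were 110 at 30 or more reads and 604 to 3085 when 1 library was left out, and the 182 lower ones 39 and 350 to 3115. Leaving out a library loosens the demand that all libraries stand apart.

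The deviations of same-numbered libraries had correlations of 0.0105 and 0.00333 over 21880 tiles. With 2 libraries in the 4-dose group, their deviations mirror each other. The check therefore cannot tell whether the numbers mark a pairing. With the replicate block, 0 tiles and 0 promoter windows were changed. Depth, and 2 libraries in the 4-dose group, limit all of these values.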
